A study of Mus musculus with 6 samples.

Results

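The crystallins are the main soluble proteins of the eye lens, and 10 of their genes were followed in the RNA of mouse RPE/choroid, the retinal pigment epithelium together with the vascular layer beneath it. The genes were taken by symbol, and all 10 were found among the 33924 genes of the table. They are the alpha crystallins Cryaa and Cryab, the beta crystallins Cryba1, Cryba2, Cryba4, Crybb1, Crybb2 and Crybb3, and the gamma crystallins Crygd and Crygs. The study compared 3 young with 3 aged C57BL/6J mouse samples, with no transgene or treatment named in the labels. The young mice are labelled as 1 to 2 months old, and the aged mice as 20 to 24 months in the titles and 22 to 24 months in the time label. Every sample carries a male label, but the study's methods mention females too and give the young group a higher age, so sex and young age are uncertain. Each library was made from 2 eyes, as total RNA depleted of ribosomal RNA, and per the protocol the lens, the cornea, the iris, muscle, the optic nerve and the neural retina were cut away before the RPE/choroid was collected.

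The alpha crystallins are small heat shock proteins, which hold unfolding proteins in solution. Cryaa is made mainly in the lens, whereas Cryab is also made in muscle, heart and glia and is induced by stress. The beta and gamma crystallins share a fold of paired Greek key domains, are structural proteins, and give the lens its refractive index. Both families have also been found at lower levels in the retina and the RPE.

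The level given below for each gene is the authors' mean of normalised counts over all 6 libraries. The table used here has no value per library or per age group, so no level has an SD, no difference between ages was computed, and neighbouring genes in an order of levels cannot be told apart by a test. The study states only an average depth over the libraries, and the reads of each library are not given in the sources used here. In RNA from whole tissue, fewer cells of a type and less RNA per cell cannot be told apart.

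All 10 crystallins had a level above 0. Of the 33924 genes, 7243 were listed at 0, and the other 26681 had a median level of 82.1. Every one of the 10 lay above that median. Against the median of the 17975 genes with a level of at least 10, which was 354, 7 of the 10 lay above it, and Crybb3, Crygd and Crybb1 lay below. Together the 10 genes summed to 8136 normalised counts, or 0.0424% of the total over all genes.

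Before any division by length, the 2 alpha crystallins had the highest levels of the 10. Cryaa had a level of 1973, which placed it above 91.7% of the genes with a level above 0. Cryab had a level of 1655, above 89.7% of them. The beta crystallins spread more widely. Crybb2 had a level of 1224, and Cryba1, which is read into 2 proteins of different length from the same mRNA, had a level of 1089. The other beta crystallins were lower, with levels of 465 for Cryba4, 364 for Cryba2, 342 for Crybb3 and 177 for Crybb1, the lowest of the 10. Of the gamma crystallins, Crygs, which is made in the lens also after birth, had a level of 535, and Crygd, a gene of the gamma cluster on chromosome 1, had a level of 311. By family, the 2 alpha genes held 44.6% of the summed level (not divided by length), the 6 beta genes 45.0% and the 2 gamma genes 10.4%. Highest and lowest level differed 11.1-fold.

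Levels of different genes were compared per kb of transcript, because the level rose with transcript length across genes. The study's methods mention TPM values, which are already divided by length, as a step before normalised counts, but its results call the values that were compared read counts, so whether this division is right for these values is not certain, and the levels of the 10 members before division are given above. Among 13827 protein-coding genes with a level of at least 10, parted by length into 4 bins, the median level went from 268 in the bin of the shortest transcripts to 953 in that of the longest, whereas per kb the medians of these bins were 186 and 142. Divided by the longest annotated transcript, Cryaa had 1559 normalised counts per kb, Cryab 1481 and Crybb2 1351. Cryba1 followed with 791 per kb, Crygs with 612 and Cryba4 with 576. Crygd, whose longest transcript of 630 bases is the shortest of the 10, had 493 per kb and so stood above Cryba2 with 395. Crybb3 had 241 per kb and Crybb1 201. Per kb the highest and lowest values differed 7.76-fold. The order in the middle depended on the transcript chosen: with the longest protein-coding transcript, Cryba1 had 1400 per kb and stood above Crybb2.

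**Figure D1:**
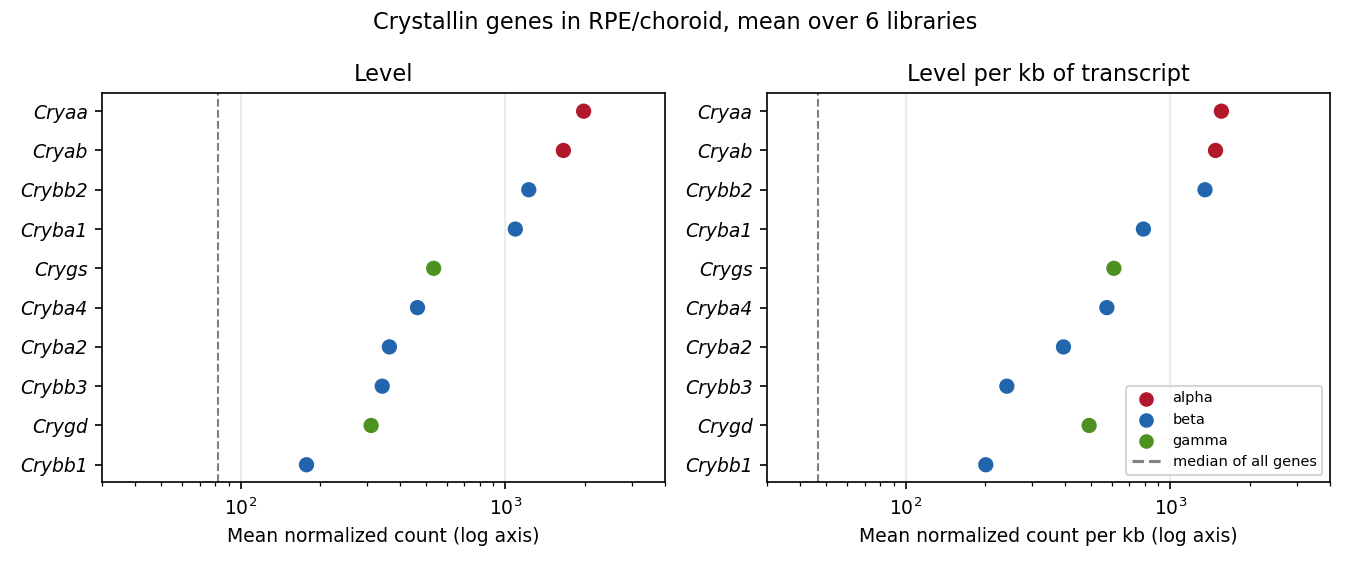
Mean normalised count over 6 libraries (left) and the same per kb of the longest transcript (right) for the 10 crystallin genes, both on log axes, 1 point per gene coloured by family, with no error since the table gives a single mean. The dashed line is the median of genes above 0, and all 10 points lie to its right, from 177 for Crybb1 to 1973 for Cryaa in the left panel.

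Cryab, the stress-inducible member, did not have the highest level. Cryaa was the 1 gene of the other 9 above it, with and without division by length. The ratio of Cryab to the median of the other 9 was 2.57 per kb, 3.56 without division by length and 3.98 per kb of coding sequence. Its level per kb was 0.238 of the summed level per kb of those 9. Among the small heat shock proteins beside the alpha crystallins, 6 genes, none was above Cryab. Hspb8, a partner of the co-chaperone Bag3, had a level of 1651, close to the 1655 of Cryab, but 909 per kb, so that the ratio of Cryab to Hspb8 was 1.63 per kb. Hspb1, the classical stress-induced member, had a level of 309 and 332 per kb, with 47.7% of its transcript words of 31 bases found in no other gene, so its level is uncertain. Per kb, Hspb2 had 171, Hspb6 101 and Hspb7 71.5. Hspb3 had the lowest level of them, 46.9 before division by length. Of 11 stress chaperones, 3 were above Cryab per kb. The highest of the 11 was the constitutive Hspa8 with 3990 per kb, and the lowest was the heat-induced Hspa1a with 82.5 per kb.

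The gene of Cryab lies on chromosome 9 from 50751325 to 50756636 of GRCm38 (plus strand) and overlaps Hspb2, on the opposite strand, by 1030 bases. The library kit kept the strand, but whether the counting used it is not given in the sources used here, so the reads of the overlap may have been credited to either gene. Cryab was 8.66 times Hspb2 per kb and 12.5 times without division by length.

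Genes that mark lens fibres other than crystallins were low beside the crystallins. The 12 genes of that list had a median of 20.1 per kb, against 594 per kb for the 10 crystallins, and a median level of 24.8 before division by length. The highest level was that of Bfsp2, a beaded filament protein of lens fibres, 526. Mip, the water channel of the fibre membrane, had a level of 24.0. Lenep was listed at 0. Per kb, 1 of the 12, Bfsp2 with 317, exceeded the lowest of the 10 crystallins, Crybb1, and also Crybb3. Before division by length, Bfsp2 lay between Crygs (535) and Cryba4 (465). Per kb, Cryaa was 139 times Mip and 4.92 times Bfsp2. Whether the crystallin reads came from lens, from retina or from the RPE/choroid itself was not tested.

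Markers of the other tissues of the eye stood beside these values. The 10 RPE genes had a median of 4755 per kb, with Ttr the highest at 83745 per kb, Rpe65, the isomerase of the visual cycle, at 23481 and the chloride channel Best1 the lowest at 33.6. The 14 rod genes had a median of 1836 per kb, with Nr2e3 the lowest at 556. The 12 genes found of other retinal neurons and Müller glia had a median of 205 per kb, with 53.2 the lowest. Rlbp1, which RPE cells also make, had the highest level (14034 per kb). Before division by length, Pcp2 had the lowest, 132. The 10 skeletal muscle genes had a median of 8923 per kb, with 8615 for Myh4 and 1241 for Actn3. The 6 genes of cornea, iris and ciliary epithelium had a median of 715 per kb, from 164 for Krt14 to 2126 for Aldh3a1, a corneal enzyme. Per kb, Cryaa was exceeded by 6 of the RPE genes, 9 of the rod genes, 3 of the other retinal genes, 8 of the muscle genes and 1 of the cornea and iris genes. Without division by length, 9, 11, 3, 10 and 2 genes of these lists, in the same order, exceeded it. Since muscle makes Cryab and retina makes several crystallins, these tissues are given beside the members, and their part in the levels was not tested.

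**Figure D2:**
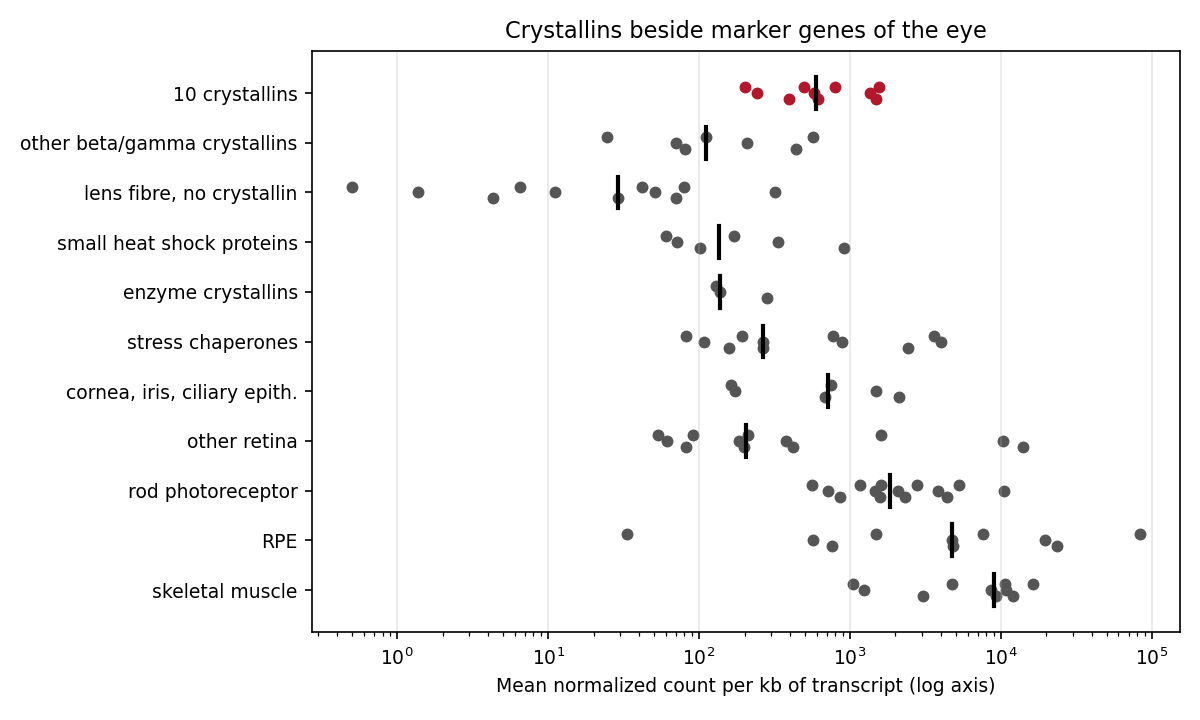
Mean normalised count per kb of the longest transcript (log axis) for the 10 crystallins (red) and for marker lists (grey), 1 point per gene above 0 with a single matching transcript model, with a black line at the median of the plotted points. The crystallins lie between 201 and 1559 per kb, and 1 lens fibre gene reaches their range.

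The enzyme crystallins, metabolic enzymes and binding proteins that some animals use as lens proteins, had 282 per kb for Cryz, a quinone reductase, 137 for Cryl1 and 130 for Crym, which binds thyroid hormone. Of the further genes of the beta and gamma superfamily, Crybg3 had the highest level, 848 before division by length. Per kb of its long transcript it had 81.1, and the highest per kb was Crygb with 572. Cryga had the lowest level, with 17.6 (24.6 per kb). Of the transcript words of 31 bases of Cryga and Crygb, 56.0% and 68.4% occur in no other gene, so both levels are uncertain. The symbol Aim1, with a level of 698, is an older name of Crybg1 and of other genes in RefSeq, so that row cannot be given to one gene.

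Crygd had the lowest share of transcript sequence of its own among the 10. Its neighbours in the gamma cluster are near copies, with coding sequences that are 80.0% to 92.0% identical to that of Crygd. Of its transcript words of 31 bases, 74.9% occur in no other gene and 25.1% are shared with Cryge. Reads from those stretches can be divided between the genes in the counting, which Sailfish, named in the study's methods, does in proportion to its estimates. The summed level of Cryga to Crygf was 1220, and Crygd held 25.5% of it. That share is uncertain, since the other genes of the sum have less sequence of their own than Crygd, down to 42.5% in Cryge. In 6 of the 10 members all words were unique, and in Cryba1, Cryba2 and Crybb3 96.1%, 99.8% and 99.5% were. Crygd and Cryge differ at 44 of 522 coding bases, with a longest identical run of 153 bases. The stretch of 60 coding bases with the most differences among Crygd, Cryge and Crygf shows what tells them apart. Capitals mark the 16 bases at which the 3 genes are not all alike, and the coordinates are those of GRCm38:
Crygd (chr1:65062104-65062163, minus strand): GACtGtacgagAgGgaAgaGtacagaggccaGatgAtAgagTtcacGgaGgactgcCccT
Cryge (chr1:65048818-65048877, minus strand): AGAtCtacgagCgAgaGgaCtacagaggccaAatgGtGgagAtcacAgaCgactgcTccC
Crygf (chr1:65927990-65928049, plus strand): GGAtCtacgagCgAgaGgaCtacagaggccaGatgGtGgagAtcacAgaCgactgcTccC
In this stretch Cryge differs from Crygd at 16 bases and Crygf at 14.

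**Figure D3:**
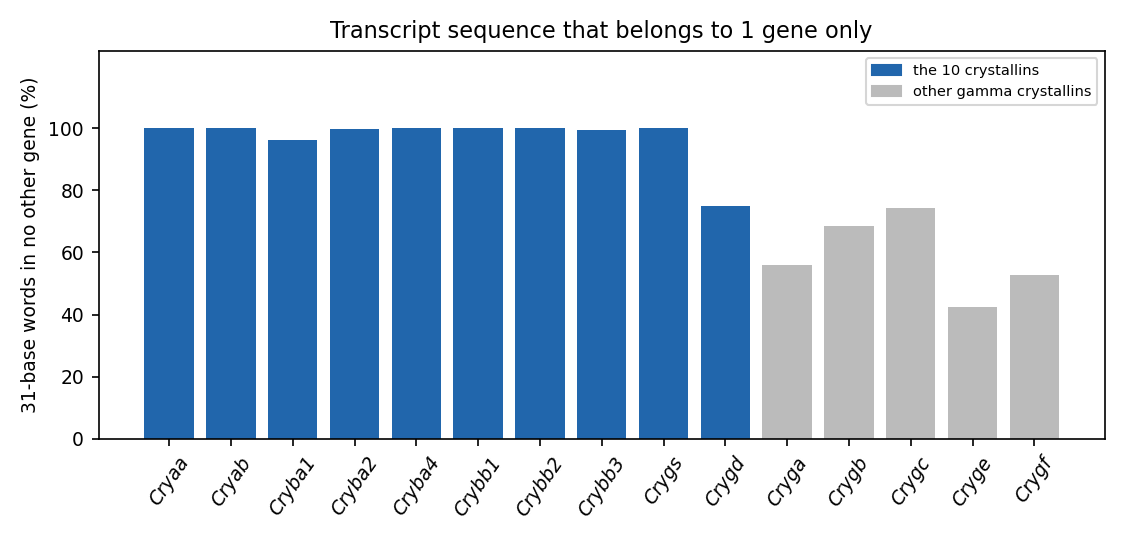
Percent of the 31-base words of each gene's transcripts that occur in no other gene (y axis), for the 10 crystallins (blue) and for the other genes of the gamma cluster (grey). 9 of the 10 crystallins stand at 96.1% or more and Crygd at 74.9%, and Cryge is the lowest at 42.5%.

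How alike the members are was measured on their coding sequences, a choice made after their levels were seen. In end-to-end alignments of their coding sequences, the 17 pairs within a family were 53.9% to 67.6% identical with a median of 59.5%, and the 28 pairs between families had a median of 52.4%. This order rests on aligning the whole sequences: local alignments gave medians of 69.1% and 84.1%, over a median of 229 and 20.5 aligned columns. Cryaa and Cryab were 61.4% identical, Crybb2 and Crybb3, the closest pair, 67.6%, and Crygd and Crygs 62.3%.

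Some members are neighbours in the genome. On chromosome 5, Cryba4 and Crybb1 point away from each other with 3296 bases between them, and the ratio of Cryba4 to Crybb1 was 2.87 per kb. Crybb2 and Crybb3 lie on the same strand with 5721 bases between them, and the ratio of Crybb2 to Crybb3 was 5.60 per kb of the longest transcript, 3.52 per kb of the longest protein-coding transcript and 3.58 without division by length.

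Promoters from RefSeq (GRCm38.p6), from 250 bases before to 50 bases after the start, were found for 9 of the 10 members, all but Cryab, and for 32851 promoters in all. Searched on both strands, the TATA box letters TATAAA were in 4 of the 9, against 13.6% of all promoters. The match began at -30, -23 and -25 from the start in Crybb1, Cryba1 and Crygs. In Cryba2 it began at -3 and crossed the start. For Crygs and Cryaa, all of the 120 bases before the RefSeq start lay inside the GENCODE gene, so their starts differ between the annotations. The letters TGCTGA, a part of the element bound by Maf factors, which drive lens crystallin genes, were in 7 of the 9, against 19.5% of all. On the gene strand alone they were in 4 of the 9, against 10.4%. The letters GAANNTTC, of the heat shock element, were in 0 of the 9, against 7.86% of all. Such a match is a run of letters, not a shown binding site. The 120 bases before the start are given for the divergent neighbours Cryba4 and Crybb1, for Cryba1 and for Crybb2, the beta member with the highest level, with TATAAA and TGCTGA in capitals:
Cryba4 (chr5:112252519-112252638, minus strand): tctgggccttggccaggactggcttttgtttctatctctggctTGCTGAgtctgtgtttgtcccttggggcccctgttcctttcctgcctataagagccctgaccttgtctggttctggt
Crybb1 (chr5:112255700-112255819, plus strand): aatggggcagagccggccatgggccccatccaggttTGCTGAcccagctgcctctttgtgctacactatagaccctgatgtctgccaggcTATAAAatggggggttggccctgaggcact
Cryba1 (chr11:77725294-77725413, minus strand): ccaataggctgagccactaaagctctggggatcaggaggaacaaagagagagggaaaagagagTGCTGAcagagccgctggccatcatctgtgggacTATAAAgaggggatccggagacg
Crybb2 (chr5:113070118-113070237, minus strand): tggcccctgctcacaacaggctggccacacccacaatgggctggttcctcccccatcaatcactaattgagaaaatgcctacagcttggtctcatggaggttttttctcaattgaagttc
In the windows shown, Crybb1 and Cryba1 hold both motifs, Cryba4 holds TGCTGA and Crybb2 holds neither. The promoters to print and the length shown were chosen after the motif positions were seen.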

How the data were processed

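RNA of RPE/choroid from 3 young and 3 aged mice was sequenced as total RNA after removal of ribosomal RNA. Per the study's methods, reads were cleaned by BBDuk and mapped by STAR against the Ensembl transcript set of GRCm38. The authors quantified TPM with Sailfish, turned it into normalised counts by the total count method, and compared the ages with DESeq2. The study's results call the values that entered this comparison read counts. The deposited table gives, per gene, 1 normalised signal that is never negative, the authors' mean over all 6 libraries. It holds 0 columns of values per sample. Its 5 further columns hold the authors' own comparison of the ages (log2 fold change, standard error, statistic, p-value and adjusted p-value) and were not used. With those columns left out and no values per sample, no age difference, test or interval is given here. The study gives an average depth only, so the depth of each library is not given in the sources used here.

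Symbols were matched to GENCODE M21 genes (28514 with 1 match), and levels were divided by the longest transcript in kb. The signal was treated as count-like because the study's results speak of read counts and because it rose with transcript length. The Spearman correlation of level and length was 0.30 among protein-coding genes with a level of at least 10. Such a rise cannot by itself tell counts from values made from TPM, so this remained uncertain. Shared words of 31 bases were counted over all transcripts. Coding sequences were aligned with Biopython 1.88 (match 2, mismatch -3, gap opening -5, gap extension -2). They replaced the planned protein alignments. Scripts ran in Python 3.11.15 with pandas 2.3.3 and numpy 2.4.6, and their functions were tested on simulated sequences.

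The members and the marker lists were chosen with earlier results of these data known. Named are the 10 members, all small heat shock proteins and enzyme crystallins, Rpe65, and the highest and the lowest gene above 0 of each other list; some genes this rule names are not reported here. Mip, Lenep, Aim1 and the gamma crystallins beside Crygd were named after their values were seen. The alternatives were other length scalings, backgrounds, motif strands and alignments.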

Additional observations from a re-analysis of the deposited data

How the results depend on the processing

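No paired analysis was possible because only a mean over all libraries was used. No replicate could be left out for that reason, and the other settings meant for an age comparison were not run, nor were those for protein identity. The ratio of Cryab to the median of the other 9 crystallins moved from 2.57 per kb of the longest transcript to 3.98 per kb of annotated coding sequence and to 3.56 without division by length. Taken against the sum of the 9 rather than their median it was 0.238, so that Cryab lay above their median and below their sum. The share of the total held by the 10 genes went from 0.0424% to 0.0488% when the total was limited to genes that RefSeq gives as protein-coding. The median of the lens fibre list went from 24.8 to 25.7 without the gene listed at 0. TGCTGA was in 7 of 9 member promoters on both strands and in 4 on the gene strand. Chosen after seeing the data were the following alternatives. The identity of Cryaa and Cryab went from 61.4% to 62.1% with the Cryaa transcript that lacks the extra coding exon. Local in place of global alignment turned the difference of the median identities, within minus between families, from 7.14 to -15.0 percentage points (69.1% against 84.1%), as local alignments of pairs between families covered a median of 20.5 columns. Division by the longest protein-coding transcript left the ratio of Cryab at 2.57, and took that of Crybb2 to Crybb3 from 5.60 to 3.52.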
